A study of Mus musculus with 24 samples.

Results

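The genes described here are 8 mouse genes of the ErbB family. Egfr, Erbb2 and Erbb3 encode receptors, and Nrg1, Areg, Ereg, Hbegf and Tgfa encode their ligands. They were taken by symbol from the table of normalized expression, and all 8 were found among its 16996 genes. The antibody and both antibody-drug conjugates of the study bind human HER2, which the tumor cells carry as a transgene, so the mouse genes below are not the drug target itself.

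CD45+ cells were enriched with magnetic beads from tumors of EMT6-hHER2, a mouse breast cancer cell line with a stably inserted human HER2 cDNA that was isolated as a single clone. The tumors grew in the mammary fat pad of wild-type female Balb/c mice of 10 to 12 weeks, and treatment was given once, intravenously, at a tumor volume of 80 mm3. The 24 samples, 1 per mouse, fell into 4 groups of 6, which were untreated or received trastuzumab at 20 mg/kg, T-DM1 at 15 mg/kg or T-PNU at 1 mg/kg, and cells were taken 10 days later. T-DM1 joins trastuzumab to a maytansinoid that disrupts microtubules, and T-PNU joins it to a derivative of the anthracycline PNU-159682. These arms thus differed in dose as well as in payload. By the volumes in the paper, T-PNU tumors were smaller at harvest than at treatment, and it reports that T-DM1 did not prevent tumor growth. Tumor size at harvest is not given per sample, and its effect cannot be told apart from that of treatment.

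ErbB receptors are tyrosine kinases of the cell surface that pair with one another after a ligand binds. EGFR binds amphiregulin, epiregulin, HB-EGF and TGF-alpha, whereas ERBB3 binds neuregulins and has little kinase activity of its own. ERBB2, the mouse counterpart of HER2, has no known ligand of its own and acts as a partner of the other receptors. The ligands are made as membrane proteins that ADAM proteases cut free, and signalling through RAS and ERK or through PI3K and AKT follows receptor pairing. The receptors are best known in epithelial and mesenchymal cells, and amphiregulin, epiregulin and HB-EGF are also made by leukocytes.

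Values were on a log2 scale and already normalized by the authors, running from 1.13 to 19.7 over all genes, with sample medians between 8.73 and 8.87. The number of reads behind them is unknown, so no interval for counting error is given. Ptprc, the gene of the CD45 protein on which the cells were selected, had values from 14.01 to 15.52 in the 24 samples. Markers of tumor and stromal cells, which should lack CD45, were measured as well. Whether leukocytes also expressed some of these markers was not tested. All 22 genes of a list of such markers had values, the lowest being Krt5 with a mean of 4.04. Genes with an average under 5 counts had been removed, and no value of any gene was below 1.13. How counts became log2 values is not named, so a value above 0 does not show that a sample had reads of that gene. The summed log2 level of that list ran from 16.02 to 17.15 in untreated samples, from 16.51 to 17.35 after trastuzumab, from 17.33 to 17.73 after T-DM1 and from 15.52 to 16.87 after T-PNU. In bulk RNA, fewer cells of a type and less RNA per cell cannot be told apart. A running number in the column names was 288 to 293 for untreated samples and was 500 or above for the treated ones. What it numbers is not stated, and its difference from treatment cannot be told apart in comparisons with untreated mice.

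Of the 8 genes, Areg and Ereg lie near each other on chromosome 5. On GRCm38, Egfr (ENSMUSG00000020122) spans chr11:16752203-16918158 on the plus strand and Erbb2 (ENSMUSG00000062312) chr11:98412470-98437716 on the plus strand. Erbb3 (ENSMUSG00000018166) spans chr10:128567523-128589652 on the minus strand and overlaps the microRNA gene Mir6917 on that strand. Ereg (ENSMUSG00000029377, chr5:91074622-91093646) and Areg (ENSMUSG00000029378, chr5:91139599-91148432) are both on the plus strand. Nrg1 (ENSMUSG00000062991, chr8:31814551-32884029) is on the minus strand and Tgfa (ENSMUSG00000029999, chr6:86195223-86275719) on the plus strand. These are whole gene spans, exons and introns together, from GENCODE M21.

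Promoter sequences are shown for Egfr, Erbb2, Areg and Tgfa. The 4 genes varied together between samples, as described below, but so did Hbegf, whose promoter is not shown. Whether promoter sequence has a part in this was not tested. Promoters from RefSeq (GRCm38.p6) were examined for these 4 of the 8 genes only, each as the 250 bases before its transcription start, 5′ to 3′ on the plus strand. Those of the other 4 genes were not examined, which does not mean that RefSeq lacks them. Capitals mark matches on either strand to 5 motifs, AP-1 (TGANTCA), the cAMP response element (TGACGTCA), the GC box (GGGCGG), the TATA box (TATAAA) and the TEAD motif (GGAATG). For Erbb2, the last 14 bases were left out because they belong to an annotated exon.
Egfr, chr11:16751953-16752202: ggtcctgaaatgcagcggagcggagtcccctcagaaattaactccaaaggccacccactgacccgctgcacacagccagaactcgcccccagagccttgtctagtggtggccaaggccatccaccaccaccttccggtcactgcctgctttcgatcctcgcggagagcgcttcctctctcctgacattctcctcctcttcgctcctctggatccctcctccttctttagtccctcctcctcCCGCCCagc
Erbb2, chr11:98412234-98412469: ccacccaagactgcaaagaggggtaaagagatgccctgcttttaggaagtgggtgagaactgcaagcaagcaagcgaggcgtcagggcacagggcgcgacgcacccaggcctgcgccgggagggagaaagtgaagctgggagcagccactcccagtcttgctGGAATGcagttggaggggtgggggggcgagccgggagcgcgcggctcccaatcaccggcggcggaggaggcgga
Areg, chr5:91139349-91139598: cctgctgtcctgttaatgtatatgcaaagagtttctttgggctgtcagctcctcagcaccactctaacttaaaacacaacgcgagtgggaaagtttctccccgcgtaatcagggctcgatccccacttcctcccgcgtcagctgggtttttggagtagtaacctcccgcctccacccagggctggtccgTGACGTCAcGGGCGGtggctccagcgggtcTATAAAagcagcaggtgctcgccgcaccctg
Tgfa, chr6:86194972-86195221: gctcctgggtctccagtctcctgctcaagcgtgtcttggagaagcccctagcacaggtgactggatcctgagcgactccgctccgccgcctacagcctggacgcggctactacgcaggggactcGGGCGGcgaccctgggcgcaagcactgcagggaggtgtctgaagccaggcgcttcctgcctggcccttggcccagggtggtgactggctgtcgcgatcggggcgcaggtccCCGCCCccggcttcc

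No motif was found in all 4 promoters. The GC box was found in 3 of them, 9 bases upstream of the RefSeq start in Egfr, 52 bases in Areg and 126 and 15 bases in Tgfa, and in 32.7% of the 32851 promoters of that length. The Areg promoter also held a cAMP response element 61 bases upstream, found in 1.55% of all promoters, and a TATA box 31 bases upstream, found in 12.4%. The Erbb2 promoter held a TEAD motif 88 bases upstream, found in 12.6%, and none of the 4 held the AP-1 letters, found in 6.75%. The GC content was 57.2% in Areg, 60.8% in Egfr, 66.0% in Erbb2 and 69.2% in Tgfa, and its median over all promoters was 52.4%.

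Per kilobase of exon, the ligand genes Areg and Hbegf stood far above the other family members. On the log2 scale per kilobase, the mean level over the 24 samples was 11.48 for Areg and 10.47 for Hbegf. Erbb2 followed at 6.92, Ereg at 5.81, Egfr at 5.75, Nrg1 at 5.37, Tgfa at 5.22 and Erbb3 at 4.87. The family genes outside the 8 were lower still, with the ligand genes Btc at 3.92, Nrg4 at 3.70, Epgn at 3.36, Nrg2 at 3.21 and Egf at 0.93, while Erbb4 and Nrg3 had no values. Areg and Hbegf encode amphiregulin and HB-EGF, ligands of EGFR.

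All 8 genes varied between mice of the same group more than most genes did. The pooled SD within groups, in log2 units, was 0.485 for Erbb2, 0.463 for Egfr, 0.436 for Areg, 0.391 for Ereg, 0.363 for Hbegf, 0.310 for Erbb3, 0.303 for Nrg1 and 0.295 for Tgfa. These SDs lay between the 75.3rd percentile (Tgfa) and the 93.7th percentile (Erbb2) of all genes. Between the lowest and the highest of the 24 samples, levels differed from 2.65-fold for Tgfa to 4.82-fold for Erbb2.

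**Figure D1:**
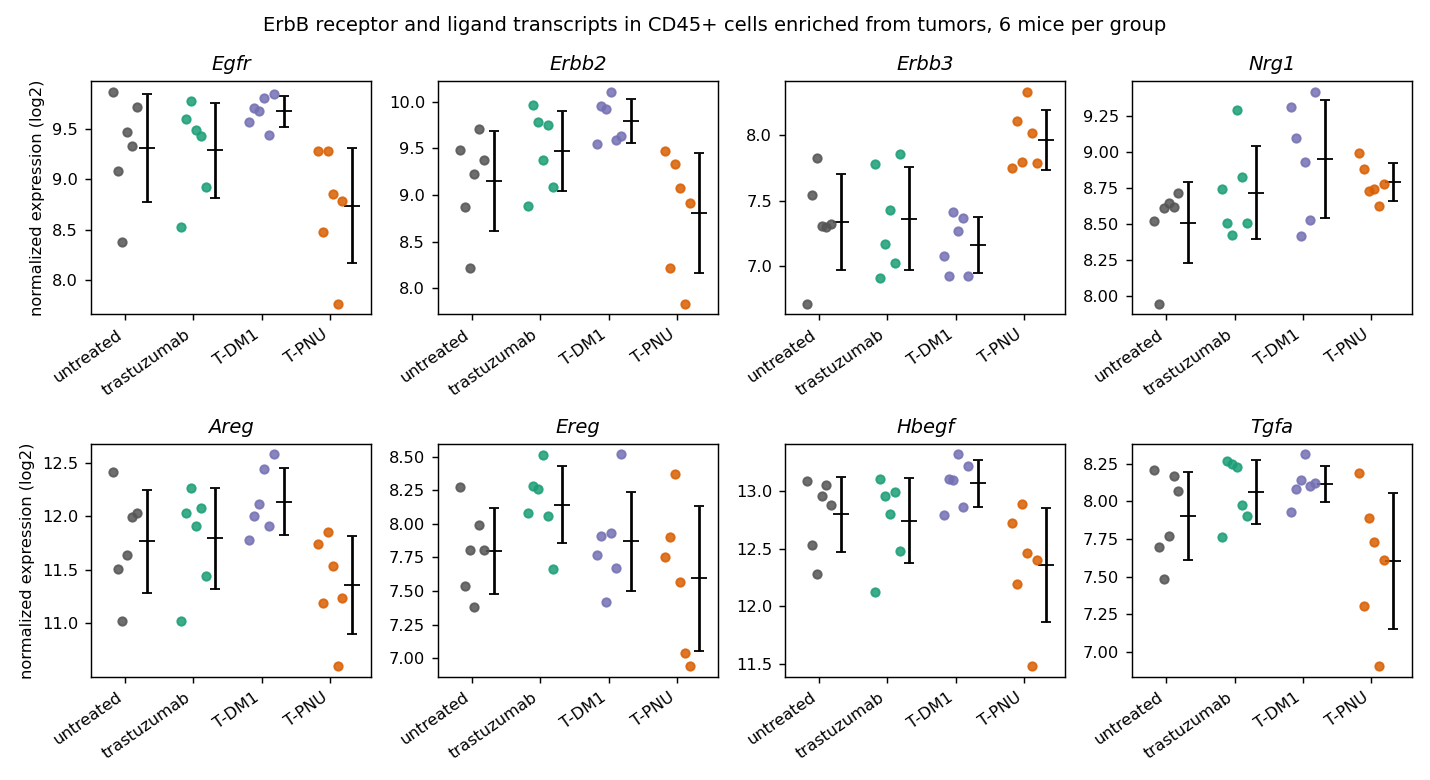
Normalized expression (log2, vertical axis, a separate range in each panel that does not start at 0) of the 8 genes in the 4 groups (horizontal axis). Each point is 1 mouse, and the bar beside the points gives the mean and SD of the 6 mice. Erbb3 lies higher after T-PNU than after T-DM1 with no overlap, and Egfr and Erbb2 lie lower with no overlap.

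The first question was whether the 2 conjugates, which share their antibody, left different levels of these transcripts. At 10 days, 6 of these 8 transcripts passed an adjusted p under 0.05 for T-PNU against T-DM1 (limma over all genes), 5 of them lower after T-PNU (Egfr, Erbb2, Areg, Hbegf and Tgfa) and 1 higher (Erbb3). Over all genes tested, 29.8% passed in this comparison, 17.4% lower and 12.4% higher. At the study's stricter rule, a false discovery rate under 0.01 with a fold change above 2, none of the 8 passed, and 1.91% of all genes did.

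Egfr, the receptor of the amphiregulin-type ligands, had a lowest, median and highest value of 9.44, 9.69 and 9.85 after T-DM1 and of 7.76, 8.82 and 9.28 after T-PNU. All 6 T-PNU samples lay below all 6 T-DM1 samples, and 13.2% of all genes had groups that did not overlap in this comparison. The SD was 0.152 after T-DM1, against 0.570 after T-PNU, 0.536 in untreated and 0.472 in trastuzumab samples. The difference was -0.94 ± 0.25 (SE) on the log2 scale, a 0.522-fold level, with an adjusted p of 0.00943 from limma.

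Erbb2, which encodes the mouse form of the targeted receptor, ran from 9.55 through a median of 9.78 to 10.11 after T-DM1 and from 7.84 through 8.997 to 9.47 after T-PNU. Here too every T-PNU sample lay below every T-DM1 sample, and 7.73% of all genes had such groups in that direction. The log2 difference was -0.98 ± 0.26 (SE), a 0.506-fold level, with an adjusted p of 0.00919 from limma. The reads were aligned to the mouse genome, and whether reads of the human HER2 transgene counted toward mouse Erbb2 was not tested.

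Erbb3, the neuregulin receptor, moved in the other direction. Its values ran from 6.93 through a median of 7.18 to 7.41 after T-DM1 and from 7.75 through 7.91 to 8.33 after T-PNU, so the lowest T-PNU sample stood above the highest T-DM1 sample, as in 5.45% of all genes. The log2 difference was 0.80 ± 0.17 (SE), a 1.74-fold level, with an adjusted p of 0.00320 from limma. Of the 8 genes it had the smallest p in this comparison.

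The ligands amphiregulin, HB-EGF and TGF-alpha were lower after T-PNU. Areg ran from 11.78 through a median of 12.05 to 12.58 after T-DM1 and from 10.60 through 11.39 to 11.86 after T-PNU, a log2 difference of -0.77 ± 0.24 (SE, adjusted p = 0.0185, limma). Hbegf (ENSMUSG00000024486, chr18:36504927-36515805, minus strand) ran from 12.79 through 13.10 to 13.32 after T-DM1 and from 11.48 through 12.43 to 12.89 after T-PNU, a log2 difference of -0.71 ± 0.20 (SE, adjusted p = 0.0115, limma). Tgfa ran from 7.93 through 8.11 to 8.31 after T-DM1 and from 6.90 through 7.67 to 8.18 after T-PNU, a log2 difference of -0.51 ± 0.17 (SE, adjusted p = 0.0247, limma). In each of these 3 genes, 5 of the 6 T-PNU samples lay below all T-DM1 samples and 1 lay within their range.

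Nrg1 and Ereg did not pass. Nrg1, the neuregulin gene whose products bind ERBB3, ran from 8.42 through a median of 9.02 to 9.42 after T-DM1 and from 8.63 through 8.76 to 8.99 after T-PNU, so that every T-PNU value lay inside the T-DM1 range. The log2 difference was -0.16 with a 95% interval from -0.51 to 0.19 (adjusted p = 0.471, limma). Ereg, the epiregulin gene, ran from 7.42 through 7.84 to 8.52 after T-DM1 and from 6.94 through 7.66 to 8.37 after T-PNU, and 2 T-PNU samples lay below all T-DM1 samples. Its log2 difference was -0.28 with a 95% interval from -0.72 to 0.17 (adjusted p = 0.329, limma). The intervals leave differences of either sign possible.

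The T-PNU sample C2 held the lowest value of all 24 samples in Egfr, Erbb2, Areg, Hbegf and Tgfa, and the highest in Ptprc (15.52). Without it, the differences between T-PNU and T-DM1 were -0.74 for Egfr, -0.79 for Erbb2 and -0.53 for Hbegf, which still passed, and -0.62 for Areg (adjusted p = 0.0544) and -0.37 for Tgfa (adjusted p = 0.0712, both limma), which did not. Tgfa also missed the threshold without T-PNU sample H1 (adjusted p = 0.0691) or without T-DM1 sample F3 (adjusted p = 0.0587, both limma). Erbb3 kept its call whichever of the 12 samples was left out, at differences from 0.73 to 0.85.

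**Figure D2:**
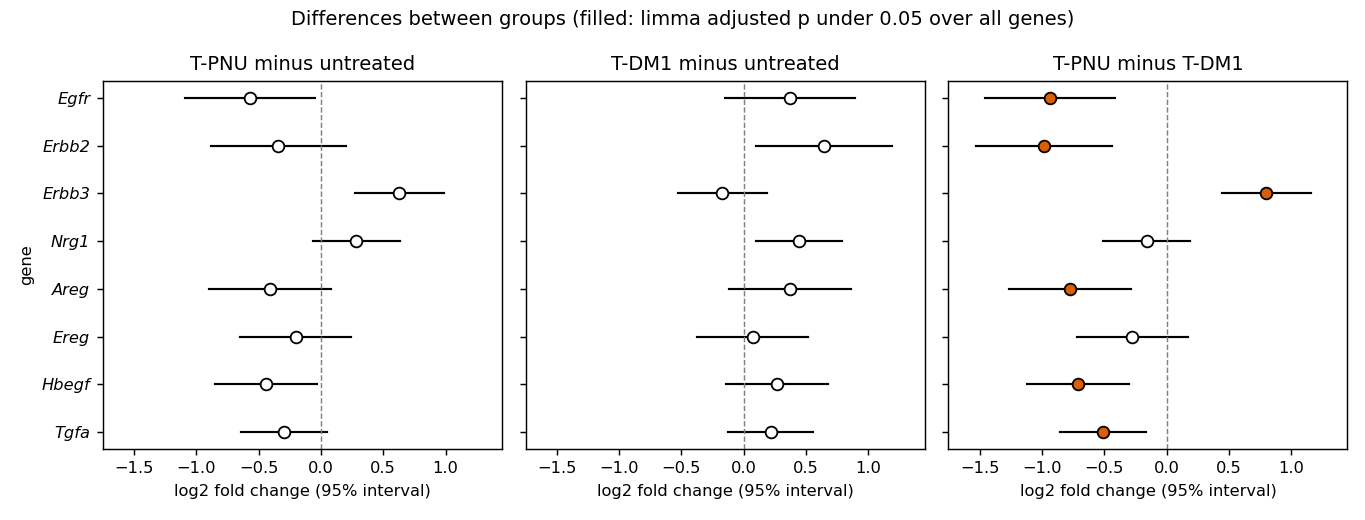
Log2 fold changes (horizontal axis) with their 95% intervals (lines) for the 8 genes (vertical axis) in 3 comparisons from the limma fit of all 24 samples. Filled points passed an adjusted p under 0.05 over all genes: 6 genes pass for T-PNU minus T-DM1, and none for either conjugate minus untreated.

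The next question was whether either conjugate, or the antibody alone, moved these genes from their level in untreated tumors. None of the 8 passed in T-PNU minus untreated (0.188% of all genes, 32 genes, passed), T-DM1 minus untreated (6.27%) or trastuzumab minus untreated (0.259%). At an unadjusted p under 0.05 the counts were 3 of 8 after T-PNU (24.8% of all genes), 2 of 8 after T-DM1 (23.4%) and 0 of 8 after trastuzumab (8.77%, all limma). Untreated Egfr ran from 8.37 through a median of 9.40 to 9.87, and its log2 difference was -0.57 ± 0.25 (SE) after T-PNU (adjusted p = 0.169) and 0.37 ± 0.25 after T-DM1 (adjusted p = 0.395, both limma). Untreated Erbb2 ran from 8.22 through 9.30 to 9.71, with -0.34 ± 0.26 after T-PNU (adjusted p = 0.402) and 0.64 ± 0.26 after T-DM1 (adjusted p = 0.140, both limma). In both receptors the untreated range overlapped that of either conjugate.

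Erbb3 in untreated samples ran from 6.72 through a median of 7.31 to 7.82, and 3 of the 6 T-PNU samples lay above all of them. Its log2 difference after T-PNU was 0.63 ± 0.17 (SE), with an unadjusted p of 0.00145 and an adjusted p of 0.0681 from limma. Egfr, Erbb3 and Hbegf were the 3 genes with an unadjusted p under 0.05 after T-PNU, and Erbb2 and Nrg1 the 2 after T-DM1. After T-DM1, Erbb3 differed from untreated by -0.17 (adjusted p = 0.596, limma). Without untreated sample C1, T-PNU differed from untreated in Egfr (-0.76, adjusted p = 0.0322) and Erbb3 (0.73, adjusted p = 0.0104), and without T-PNU sample G1 in Erbb3 (0.67, adjusted p = 0.0408, all limma).

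For the ligand genes Areg, Hbegf and Tgfa, the untreated mean lay between the means of both conjugates. Untreated Areg had a median of 11.81, Hbegf 12.92 and Tgfa 7.92, and the log2 differences after T-PNU were -0.41 (adjusted p = 0.277), -0.44 (adjusted p = 0.174) and -0.30 (adjusted p = 0.258, all limma). After T-DM1 the same 3 genes differed from untreated by 0.37 (adjusted p = 0.363), 0.27 (adjusted p = 0.435) and 0.21 (adjusted p = 0.459, all limma). Without T-PNU sample C2, the differences of T-PNU from untreated were -0.37 for Egfr, -0.15 for Erbb2, -0.25 for Areg, -0.27 for Hbegf, -0.16 for Tgfa and -0.09 for Ereg, and none of these passed. Ereg differed by -0.20 after T-PNU (adjusted p = 0.546) and 0.07 after T-DM1 (adjusted p = 0.881, both limma).

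Nrg1 had its lowest group mean in untreated mice. Untreated values ran from 7.95 through a median of 8.61 to 8.72, and 5 of 6 T-PNU samples and 4 of 6 T-DM1 samples lay above all untreated ones. Its log2 difference from untreated was 0.28 ± 0.17 (SE) after T-PNU (adjusted p = 0.285) and 0.44 ± 0.17 after T-DM1 (adjusted p = 0.110, both limma).

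Trastuzumab alone left the 8 genes within 0.35 log2 units of untreated. The furthest were Ereg at 0.35 (adjusted p = 0.723), which ran from 7.67 to 8.51 against 7.38 to 8.27 in untreated mice, and Erbb2 at 0.33 (adjusted p = 0.818, both limma). Compared with trastuzumab, none of the 8 passed after T-DM1 in limma (0.647% of all genes passed, and 0 of 8 against 15.3% of all genes had an unadjusted p under 0.05), where the differences ran from -0.27 for Ereg to 0.39 for Egfr. None passed after T-PNU either (0.00588% of all genes, 1 gene, passed, and 5 of 8 against 19.5% had an unadjusted p under 0.05), where the largest were Erbb2 at -0.67 (adjusted p = 0.197), Erbb3 at 0.60 (adjusted p = 0.147), Egfr at -0.55 (adjusted p = 0.238) and Ereg at -0.55 (adjusted p = 0.196, all limma).

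In the order of the group means, T-DM1 was the highest and T-PNU the lowest group for Egfr, Erbb2, Areg, Hbegf and Tgfa, with trastuzumab and untreated between them. For Erbb3 the order of the ends was the opposite. Nrg1 was highest after T-DM1 and lowest in untreated mice, and Ereg was highest after trastuzumab and lowest after T-PNU. No 2 neighbours in these orders differed at an adjusted p under 0.05. The only pair that did in any of the 8 genes was T-PNU and T-DM1, in all but Nrg1 and Ereg. A single test over the 4 groups (limma's F) called Erbb3 (adjusted p = 0.0156) and Erbb2 (adjusted p = 0.0429), 2 of the 8 genes, against 18.8% of all genes. With 1 sample left out, it called 1 to 5 of the 8, and the 5 were reached without T-PNU sample G1. In the 20 samples described next it called 6 of the 8, against 40.8% of all genes.

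The calls against untreated and trastuzumab depended on which samples entered. The study's heatmaps show 20 samples, without the wells B1 and C1 of the untreated and E2 and B3 of the trastuzumab group. The labels give no reason for leaving these out. The paper describes a check of expression similarity meant to find and remove outliers, but its text does not say which samples, if any, were removed. In these 20 samples, T-PNU differed from untreated in 4 of the 8 genes (31.1% of all genes passed), with log2 differences of -0.86 for Egfr (adjusted p = 0.00838), 0.80 for Erbb3 (adjusted p = 0.00321), -0.66 for Areg (adjusted p = 0.0233) and -0.64 for Hbegf (adjusted p = 0.0163, all limma). It differed from trastuzumab in 7 of the 8, all but Nrg1 (28% of all genes passed). The 4 left-out samples had Ptprc values of 15.23 (B1), 15.24 (C1), 15.08 (E2) and 14.91 (B3), the 2 highest of each group. Their Egfr values of 9.08, 8.37, 8.53 and 8.92 were the 2 lowest of each group.

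Egfr, Erbb2, Areg, Hbegf and Tgfa rose and fell together over the 24 samples: for the 10 pairs, Pearson's r lay between 0.882 and 0.957 and Spearman's rho between 0.783 and 0.930. The largest adjusted p was 5.4e-05 (permutation test with 100000 resamples, two-sided, adjusted over 36 relations), and 1e-05 before adjustment is the smallest that these resamples can give. Without the 2 samples farthest from the median, r was 0.815 to 0.933, and for deviations from group means 0.851 to 0.936. Within a group of 6 samples, r over the 10 pairs ran from 0.848 to 0.966 in untreated, from 0.785 to 0.984 in trastuzumab and from 0.935 to 0.992 in T-PNU samples. In T-DM1 samples, where these genes varied least, it ran from 0.364 for Erbb2 with Areg to 0.896 for Areg with Hbegf.

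Erbb3 ran against these 5 genes, with r from -0.808 to -0.681, rho from -0.847 to -0.698 and a largest adjusted p of 0.000309 (permutation test). For deviations from group means its r was -0.684 to -0.491, and without the 2 farthest samples it was -0.835 to -0.653. Within the T-DM1 samples alone the sign was not uniform, since Erbb3 had an r of 0.169 with Erbb2 and 0.344 with Tgfa there. Nrg1 showed no such relation, with r from 0.153 to 0.201 and a smallest adjusted p of 0.410 (permutation test). Ereg stood between, with r from 0.437 to 0.589 and adjusted p values from 0.00409 to 0.0561 (permutation test), and without the 2 farthest samples its r fell to between 0.264 and 0.507.

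**Figure D3:**
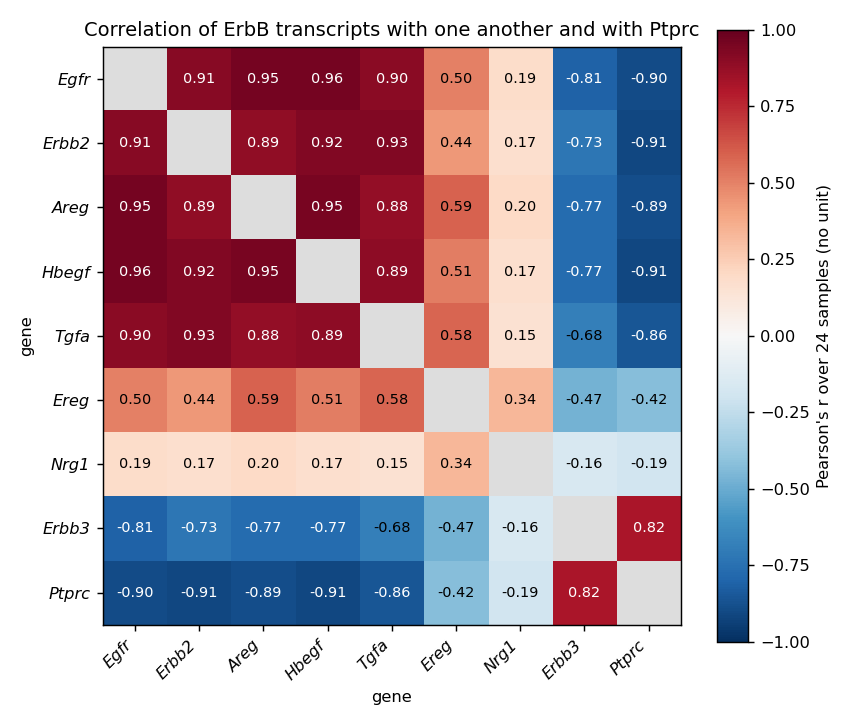
Pearson's r over the 24 samples for each pair of the 8 genes and Ptprc (genes on both axes, color scale from -1 to 1). The block of Egfr, Erbb2, Areg, Hbegf and Tgfa is positive throughout, Erbb3 and Ptprc are negative with that block, and Nrg1 stays between 0.153 and 0.201 with it.

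The same 5 genes ran against Ptprc, the transcript of the selection marker. Their r with Ptprc lay between -0.914 and -0.856 and rho between -0.903 and -0.803, with a largest adjusted p of 3.79e-05 (permutation test), and r for deviations from group means was -0.884 to -0.806. Erbb3 rose with Ptprc, at an r of 0.820 and a rho of 0.832 (adjusted p = 2e-05 for r, permutation test). Within groups the r of Erbb3 with Ptprc was 0.747 in untreated, 0.891 in trastuzumab, 0.630 in T-PNU and 0.140 in T-DM1 samples. Nrg1 did not follow it (r = -0.188, adjusted p = 0.427) and Ereg did so weakly (r = -0.422, adjusted p = 0.0522, permutation tests). Ptprc itself was 0.76 ± 0.19 (SE) higher on the log2 scale after T-PNU than after T-DM1 (adjusted p = 0.00569, limma), and the lowest T-PNU sample (14.75) exceeded the highest T-DM1 sample (14.61). The paper reports a high purity of the selected cells by flow cytometry, with no value per sample. The part that the share of CD45+ cells had in the differences of the ErbB genes was not tested.

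**Figure D4:**
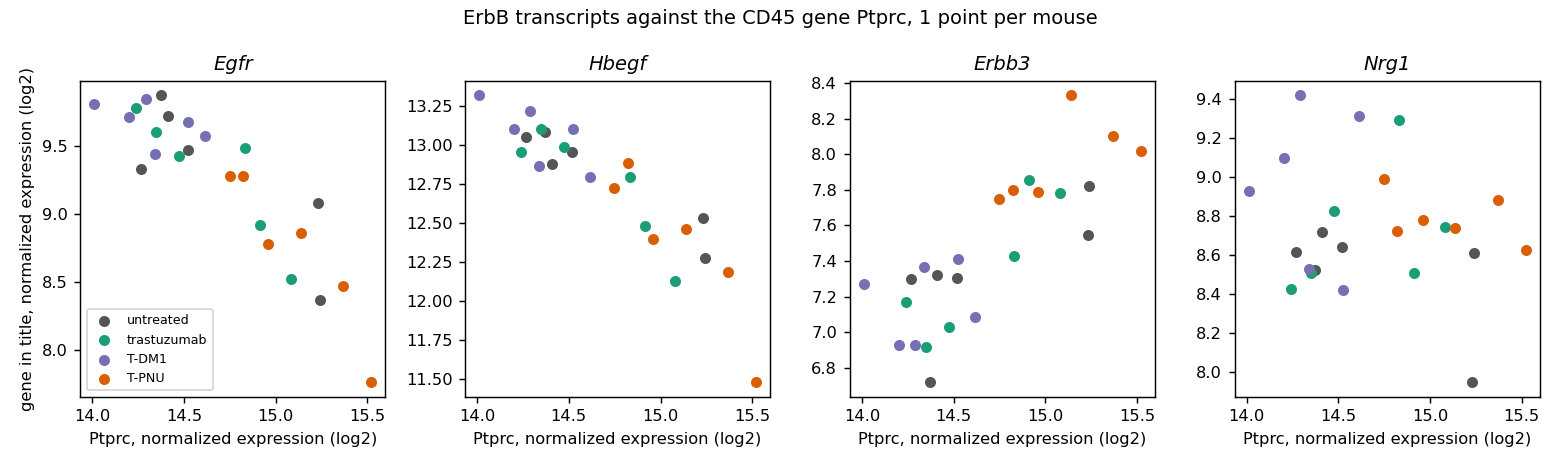
Normalized expression (log2) of Egfr, Hbegf, Erbb3 and Nrg1 (vertical axes) against that of Ptprc (horizontal axis), 1 point per mouse, colored by group. Over all 24 samples Egfr and Hbegf fall and Erbb3 rises as Ptprc rises, while the r with Ptprc is -0.188 for Nrg1 and, within the T-DM1 samples alone, 0.140 for Erbb3.

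Markers of tumor and stromal cells moved in the same comparison. Of the 22 markers, 11 were lower and 6 higher after T-PNU than after T-DM1, and the median log2 difference was -0.51, against 0.03 over all genes, of which 17.4% were lower and 12.4% higher. The lower ones were led by collagen and fibroblast genes, Col6a1 at -1.71 (adjusted p = 0.00126), Col1a1 at -1.62 (adjusted p = 0.00139), Pdgfrb at -1.57 (adjusted p = 0.00133), Col5a1 at -1.46 (adjusted p = 0.00179) and Col3a1 at -1.38 (adjusted p = 0.000850, all limma). The higher ones were the keratin genes Krt5 (1.48) and Krt14 (1.02), the epithelial adhesion gene Epcam (0.84), the endothelial genes Pecam1 (0.72) and Cdh5 (0.66), and Tagln of smooth muscle (0.58). Krt5, the lowest of the 22, averaged 4.04. Against untreated samples, 4 of the 22 were higher after T-DM1 (4.11% of all genes), Col1a1 (1.32), Dcn (1.10), Col5a1 (0.97) and Col3a1 (0.91). After T-PNU 1 was higher (0.135% of all genes), Krt14 (1.15, adjusted p = 0.0470, limma). In the 20 samples of the heatmaps, 1 of the 22 was higher than in untreated samples after T-DM1 (0.906% of all genes). After T-PNU 7 were higher and 9 lower there (15.3% and 15.7% of all genes). The summed level of the list did not overlap between T-PNU and T-DM1 in the ranges given above. A second measure gave every marker equal weight, by centering each one on its own mean before averaging the 22. That measure did overlap, at 0.175 to 0.344 after T-DM1 and -0.664 to 0.272 after T-PNU. The part of either measure in the ErbB differences was not tested.

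With 24 samples, the immune markers that passed were higher after T-PNU, with the exception of Il1rl1. Among 12 genes of macrophages and monocytes, 5 were higher after T-PNU than after T-DM1 and none lower, against 12.4% of all genes higher, among them Adgre1 at 0.86 (adjusted p = 0.00645) and C1qb at 0.83 (adjusted p = 0.00436, both limma). Of 10 neutrophil genes 2 were higher (Retnlg at 0.84 and Ly6g at 0.44), of 8 dendritic cell genes 2 (Xcr1 at 1.19 and Clec9a at 0.83) and of 5 NK cell genes 3 (Klrb1c at 0.84, Ncr1 at 0.71 and Eomes at 0.68). None of 9 T cell genes and none of 6 B cell genes passed, and their medians were 0.96 and 1.00. In the 20 samples of the heatmaps, 4 of the 9 T cell genes were higher after T-PNU than after T-DM1 (19.8% of all genes higher, 20.1% lower) and 9 of the 9 were higher than in untreated samples (15.3% of all genes higher), whereas no B cell gene passed in either comparison. In the mast cell, basophil and innate lymphoid list, Il7r (0.71), Kit (0.56) and Ms4a2 (0.42) were higher, and Il1rl1, the IL-33 receptor that the regulatory T cell list also holds, was lower at -1.18 (adjusted p = 0.00631, limma). In the regulatory T cell list, Il2ra (0.58) and Ikzf2 (0.52) were higher.

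Of the other ErbB ligand genes, 1 passed between T-PNU and T-DM1. Nrg2, a neuregulin gene with a low level, was 0.51 ± 0.16 (SE) higher after T-PNU than after T-DM1 (adjusted p = 0.0203, limma). Btc, the betacellulin gene, had a log2 difference of -0.34 (adjusted p = 0.112, limma), and Egf, Epgn and Nrg4 did not pass. Over the 10 ligand genes with values, 3 were lower and 1 higher, with a median of -0.22. The shares of all genes were 17.4% lower and 12.4% higher, so this count was near the background.

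The proteases that release the ligands moved in both directions. Of 10 sheddases and their regulators, 4 were higher and 2 lower after T-PNU than after T-DM1, with a median of 0.21, against 12.4% of all genes higher and 17.4% lower. Adam17 and Adam10, the main sheddases of ErbB ligands, were higher by 0.31 (adjusted p = 0.0321) and 0.38 (adjusted p = 0.00424), as were Adam19 at 0.61 and the protease inhibitor Timp3 at 0.86 (adjusted p = 0.00739, limma throughout). Rhbdf1, which encodes the ADAM17 partner iRhom1, had the largest fall at -1.28 ± 0.21 (SE, adjusted p = 0.00101), and Adam12 fell by 0.94 on the log2 scale (adjusted p = 0.00637, both limma). Against untreated samples, Rhbdf1 was higher after T-DM1 (0.83, adjusted p = 0.0239) and Adam10 lower (-0.43, adjusted p = 0.00789, both limma), against 4.11% of all genes higher and 2.15% lower. No gene of the list passed after T-PNU (0.188% of all genes). In the 20 samples 1 was higher and 2 lower, near the shares of all genes (15.3% and 15.7%).

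Of 34 adaptors and kinases downstream of the receptors, 7 were higher and 6 lower after T-PNU than after T-DM1, with a median of 0.17. With 12.4% of all genes higher and 17.4% lower, these counts were near the background. The lower ones included Pik3r2, a regulatory subunit of PI3K, at a 0.498-fold level (adjusted p = 0.00139), the kinase genes Src at a log2 difference of -0.60 (adjusted p = 0.0143) and Akt1 at -0.49 (adjusted p = 0.00445), and the adaptor gene Shc1 at -0.45 (adjusted p = 0.00372, all limma). Pik3r1, another regulatory subunit of PI3K, was higher at 0.66 (adjusted p = 0.0283, limma). After T-DM1, 2 of the 34, Pik3r2 (0.61) and Map2k2 (0.48), were higher than in untreated samples, near the share of all genes (4.11%). None was in the 20 samples (0.906% of all genes). None of the 34 passed after T-PNU (0.188% of all genes), but in the 20 samples 10 were higher and 5 lower (15.3% and 15.7% of all genes).

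Of 20 genes for feedback inhibitors and receptor turnover, 7 were lower and 4 higher after T-PNU than after T-DM1, with a median of -0.18, against 17.4% of all genes lower and 12.4% higher. Spry2 (-0.79, adjusted p = 0.00407), Spry1 (-0.68, adjusted p = 0.00120) and Spry4 (-0.51, adjusted p = 0.0421), which encode Sprouty inhibitors of RAS and ERK signalling, were among the lower ones (limma). Errfi1, whose product binds and inhibits EGFR, was lower at -0.64 (adjusted p = 0.0109), and Dusp6, the gene of an ERK phosphatase, at -0.52 (adjusted p = 0.00226, both limma). Erbin, a binding partner of ERBB2, was higher at 0.34 (adjusted p = 0.0126) and the ubiquitin ligase gene Cbl at 0.32 (adjusted p = 0.0105, both limma). Against untreated samples none of the 20 genes passed after T-PNU (0.188% of all genes), and 2 were higher after T-DM1 (4.11% of all genes). In the 20 samples of the heatmaps, 8 were lower and 1 higher after T-PNU (15.7% and 15.3% of all genes), and none passed after T-DM1.

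Of 14 transcripts known to respond to ERK, 8 were lower after T-PNU than after T-DM1 and none higher, with a median of -0.36, against 17.4% of all genes lower and 12.4% higher. They were led by Fosl1 at -1.03 (adjusted p = 0.00473), Myc at -0.89 (adjusted p = 0.00134), Hmga2 at -0.88 (adjusted p = 0.0161), Etv4 at -0.83 (adjusted p = 0.0115) and Ier3 at -0.53 (adjusted p = 0.00423, all limma). Fosl1 and Etv4 encode transcription factors of the AP-1 and ETS families. Against untreated samples, 6 of the 14 were higher after T-DM1, with a median of 0.42 against -0.02 over all genes, and these were Myc (0.58), Egr3 (0.52), Ier3 (0.46), Phlda1 (0.46), Fos (0.41) and Plaur (0.35). Of all genes, 4.11% were higher in that comparison, and in the 20 samples of the heatmaps 2 of the 14 were (0.906% of all genes). After T-PNU none of the 14 passed against untreated, with a median of 0.04. In the 20 samples 4 were lower and 1 higher (15.7% and 15.3% of all genes), with a median of -0.04. The comparisons share their T-DM1 or untreated samples, so their values are not independent of each other.

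The transcripts whose values over the 24 samples were most like those of each gene are given as a description, by Pearson's r. Egfr was closest to Pcdh19 (0.982), Col12a1 (0.981) and Plod2 (0.981), and Erbb2 to Rin1 (0.987), Flnc (0.986) and Wnt10a (0.985). Areg was closest to Dynap (0.973), Gja1 (0.973) and Ugdh (0.967), Hbegf to Gpc6 (0.978), 1810011O10Rik (0.974) and Cpe (0.973), and Tgfa to Hmga2 (0.970), Efna5 (0.968) and Enah (0.967). Col12a1 and Plod2 encode a collagen chain and a collagen-modifying enzyme, and Gja1 encodes the gap junction protein connexin 43.

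The other 3 genes had fewer close matches. Erbb3 was closest to Esrp1 (0.901), an epithelial splicing factor gene, Fli1 (0.888), an ETS factor gene of blood and endothelial cells, and Slc25a35 (0.887). Nrg1 was closest to Mefv (0.848), which encodes the inflammasome protein pyrin, Itga1 (0.788) and the costimulatory gene Cd80 (0.783). Ereg was closest to Ptgs2 (0.834), which encodes the prostaglandin synthase COX-2, Mbtps2 (0.785) and Rbpj (0.782). The number of genes with an r above 0.9 was 659 for Egfr, 638 for Erbb2, 597 for Hbegf, 371 for Areg and 318 for Tgfa, but 1 for Erbb3 and 0 for Nrg1 and for Ereg.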

How the data were processed

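RNA was measured in CD45+ cells of 24 mice, grouped as the sample titles give them. The authors aligned single reads of 81 bases with STAR 2.4.2a (mm10 in the submitters' processing notes), counted them per gene on the reverse strand with featureCounts (Subread 1.5.0), removed genes with an average under 5 counts and named DESeq2 for comparisons. The deposited values are log2 expression normalized for library size. The transformation is not named and may shrink low values, so fold changes can be understated. Counts were not recovered and the depth is unknown. From these values, limma 3.58.1 in R 4.3.3 fitted all 4 groups together (lmFit, contrasts.fit, eBayes with a trend, 20 residual degrees of freedom, no covariate, no filter). P-values were adjusted by Benjamini-Hochberg over all 16996 genes and read at 0.05, and measure the spread between mice. All 24 samples entered, since the labels give no reason to leave any out. The outlier check that the paper describes does not name the samples removed, if any. Correlations used permutation tests in Python 3.11.15 with scipy 1.17.1, and figures matplotlib 3.10.9. Levels per kilobase divide by the union of GENCODE M21 exons. Only the limma fit was tested on simulated data, for T-PNU minus untreated. The simulated noise was independent between genes, unlike the correlated values here. The alternatives were the 20 samples of the heatmaps, quantile normalization, subtraction of sample medians, genes above the median level only, sample weights, fits of only the 2 groups compared, the study's stricter thresholds and each sample left out in turn. The genes and lists were chosen with earlier results of these data known. Named are the 8 genes, the family members with values, up to 5 passing genes and the extremes of each list, and the 3 transcripts most like each gene. A few further passing genes of the lists were named after their values were seen.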

Additional observations from a re-analysis of the deposited data

Results flagged for a closer look

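In the 8 genes and 4 groups, 32 sets of 6 samples were examined for a sample far from the others, and 1 stood out; chance marks about 1 in 20 such sets. It was Nrg1, the neuregulin gene, in untreated sample B1. Its value of 7.95 lay below the next at 8.52, while the highest of the group was 8.72, so that the gap took up 0.75 of the group's range against a critical value of 0.625. Without that sample, Nrg1 differed from untreated by 0.17 after T-PNU and by 0.33 after T-DM1 on the log2 scale.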

How the results depend on the processing

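No paired analysis was possible because the labels give wells and no replicate numbers, and nothing ties a sample of one group to a sample of another. The number of the 8 genes called in T-PNU minus T-DM1 was 6 with all samples and 0 under the study's stricter thresholds, and 4 to 6 with each sample left out in turn (4 without T-PNU sample C2). In T-PNU minus untreated it was 0, but 4 in the 20 samples of the heatmaps (31.1% of all genes), 3 with sample weights (Egfr, Erbb3 and Hbegf) and 0 to 2 with 1 sample left out. Those 2 were Egfr (-0.76, adjusted p = 0.0322) and Erbb3 (0.73, adjusted p = 0.0104) without untreated sample C1, and Erbb3 was also called without T-PNU sample G1 (adjusted p = 0.0408). In T-PNU minus trastuzumab it was 0, but 7 in the 20 samples (28% of all genes), 5 with sample weights and 0 to 0 with 1 sample left out. In T-DM1 minus untreated it was 0, and 1 with sample weights (Erbb2, 0.50, adjusted p = 0.0416). With 1 sample left out it was 0 to 0 there and in the comparisons of trastuzumab with untreated and with T-DM1. Over the 4 groups it was 2, but 6 in the 20 samples (40.8% of all genes, 18.8% with 24) and with sample weights, 1 with quantile normalization and with sample medians subtracted, and 1 to 5 with 1 sample left out (5 without T-PNU sample G1). The share of all genes called was not computed with sample weights, other normalizations or 1 sample left out. Counts from those settings therefore have no background to be read against. Directions changed only in differences that did not pass. In the 20 samples these were Erbb3 in T-DM1 minus untreated (0.0038), trastuzumab minus untreated (-0.025) and T-DM1 minus trastuzumab (0.029), and Tgfa in T-DM1 minus trastuzumab (-0.064). With quantile normalization it was Erbb3 in trastuzumab minus untreated (-0.0065), and with sample weights that difference (-0.057) and Tgfa in T-DM1 minus trastuzumab (-0.011). With 1 sample left out, trastuzumab minus untreated ranged from -0.20 to 0.14 for Egfr, -0.097 to 0.12 for Erbb3, -0.12 to 0.18 for Areg and -0.16 to 0.069 for Hbegf, T-DM1 minus untreated from -0.056 to 0.17 for Ereg, and T-DM1 minus trastuzumab from -0.0090 to 0.091 for Tgfa. All 48 differences of single genes kept direction and call when only the 2 groups were fitted or sample medians were subtracted, and 47 did with quantile normalization. Keeping genes above the median level left 4 of the 8 genes to test, and their 24 differences kept direction and call. The cause of these changes was not tested, and the unknown depth limits how far low values can be read.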
